A study of Homo sapiens with 9 samples.

Results

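The replication-dependent histone genes are the clustered genes that encode the bulk histone proteins H1, H2A, H2B, H3 and H4. They were taken from the deposited gene table by name, as every gene whose symbol has the form H2AC, H2BC, H3C or H4C followed by a number, or H1-1 to H1-6, with 3 pseudogenes left out. This gave 53 genes of the 33861 in the table, of which 4 encode H1, 14 H2A, 14 H2B, 10 H3 and 11 H4. In all, 42 lie on chromosome 6 and 11 on chromosome 1.

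The libraries came from HCT116 cells, an established human colorectal carcinoma line. To follow the response to 2 growth factors given in sequence, 3 libraries were made from control cells labelled NC, 3 from cells given activin A at 100 ng/mL for 5 days, and 3 from cells given the same activin A treatment followed by HGF (hepatocyte growth factor) at 20 ng/mL for another 5 days. The labels give no agent or dose for the NC cells, and how long they were cultured is not stated in the sources used here. No group was given activin and then 5 more days without HGF. In activin + HGF against activin, HGF and the added days in culture therefore cannot be told apart. Nothing in the labels says that the 3 libraries of a group came from separate cultures, so the p-values measure the spread between these libraries, which may be technical.

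Replication-dependent histone genes supply the histones that package new DNA, and their mRNAs normally accumulate in S phase and are degraded when DNA synthesis stops. Unlike other mRNAs, these normally end at a conserved stem-loop instead of a poly(A) tail, and the stem-loop is bound by the protein SLBP, which acts in the processing, export, translation and decay of the message. Some of the genes can also give a longer, polyadenylated mRNA from a poly(A) signal downstream of the stem-loop, a form known from differentiated and non-dividing cells.

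The stem-loop is the feature that sets these mRNAs apart, so it is shown for 9 members whose values follow. In the GENCODE v29 transcripts (GRCh38), 31 of the 52 members with a transcript had an annotated 3′ UTR. Of those 31, 27 held a stem of 6 base pairs closing a loop of 4 bases after the stop codon. The search asked for GG at the start, CC at the end, T opening the loop and G as the second base after it. G-T pairs were allowed, and a stem-loop of another form would be missed. Capitals mark the 16 bases of stem and loop, with 5 bases of flank on either side, written 5′ to 3′ as DNA on the mRNA strand.
H2AC19: caaaaGGCTCTTTTCAGAGCCaccca
H2AC6: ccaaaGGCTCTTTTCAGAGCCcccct
H2BC21: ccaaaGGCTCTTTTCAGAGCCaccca
H2BC5: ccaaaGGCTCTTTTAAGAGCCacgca
H2BC4: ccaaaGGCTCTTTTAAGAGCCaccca
H3C6: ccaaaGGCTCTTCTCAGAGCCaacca
H3C10: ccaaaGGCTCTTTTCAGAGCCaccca
H4C11: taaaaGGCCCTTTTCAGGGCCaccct
H4C9: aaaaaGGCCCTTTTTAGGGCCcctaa
The 27 members carried 6 distinct stem-loops, and the form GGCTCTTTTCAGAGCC was shared by 15 of them. H2BC5, H2BC4 and H2BC7 carried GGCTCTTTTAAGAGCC. Of the H4 genes, 4 carried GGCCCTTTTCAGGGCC and 3 carried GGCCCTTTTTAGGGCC. For 21 members at least 1 v29 transcript held the letters of a poly(A) signal, AATAAA or ATTAAA, in its last 50 bases. Of these 21, 20 also held the stem-loop. The search did not ask on which side of the stem-loop the letters lay. The H4C11 transcript ends 6 bases past its stem-loop, so its match lies before the stem-loop. The longest annotated transcript of H2BC21 ran 1729 bases past the stem-loop and that of H2AC6 ran 1128 bases past it. H2BC5 and H2BC4 each had a transcript that ended at a poly(A) signal and lacked the stem-loop, beside one that held it.

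The members with a poly(A) signal in v29 had a median level of 0.75 FPKM over the 9 libraries, where FPKM is the authors' level per gene length and library size. In this class 10 of 21 members reached 1 FPKM, among them H4C11, whose match lies before the stem-loop. The 10 members with a 3′ UTR but no poly(A) signal had a median of 0.118 FPKM and 1 of them reached 1 FPKM. The 21 members with no 3′ UTR in v29 had a median of 0.152 FPKM and 4 of them reached 1 FPKM. Members without an annotated end include H1-2 and H2BC12, the most abundant of all, so the classes rest on what v29 annotates.

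Levels were concentrated in a few genes. H1-2, which encodes a linker histone, had the highest mean over the 9 libraries at 58.5 FPKM. It was followed by the H2B genes H2BC12 at 42.4 FPKM and H2BC5 at 22.4 FPKM. The H2A genes H2AC19 and H2AC18 came next, at 11.9 and 11.6 FPKM. Their means rest largely on activin + HGF replicate 1, at 63.42 and 60.6 FPKM. In the other libraries H2AC19 had 2.14 to 9.96 FPKM and H2AC18 1.94 to 10.1 FPKM. The order also differed between groups, since in control H2BC12 led at a mean of 35.1 FPKM and H1-2 had 16.1 FPKM. The shares that follow are over the means of all 9 libraries. H1-2 alone made up 32.7% of the summed FPKM of the 53 members, the top 5 made up 82.0%, and the top 8, which add H2AC6, H2BC21 and H2BC4, made up 90.5%. In all, 15 members had a mean of at least 1 FPKM and 35 had a mean under 0.5 FPKM, and the median over the 53 was 0.286 FPKM.

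A mean of at least 1 FPKM was reached by 1 of 4 H1, 4 of 14 H2A, 5 of 14 H2B, 2 of 10 H3 and 3 of 11 H4 genes. The most abundant H3 gene, H3C6, had a mean of 1.62 FPKM and the most abundant H4 gene, H4C12, a mean of 1.70 FPKM. Both stood far under the leading H1 and H2B genes, although H3 and H4 enter the nucleosome in the same number as H2A and H2B.

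**Figure D1:**
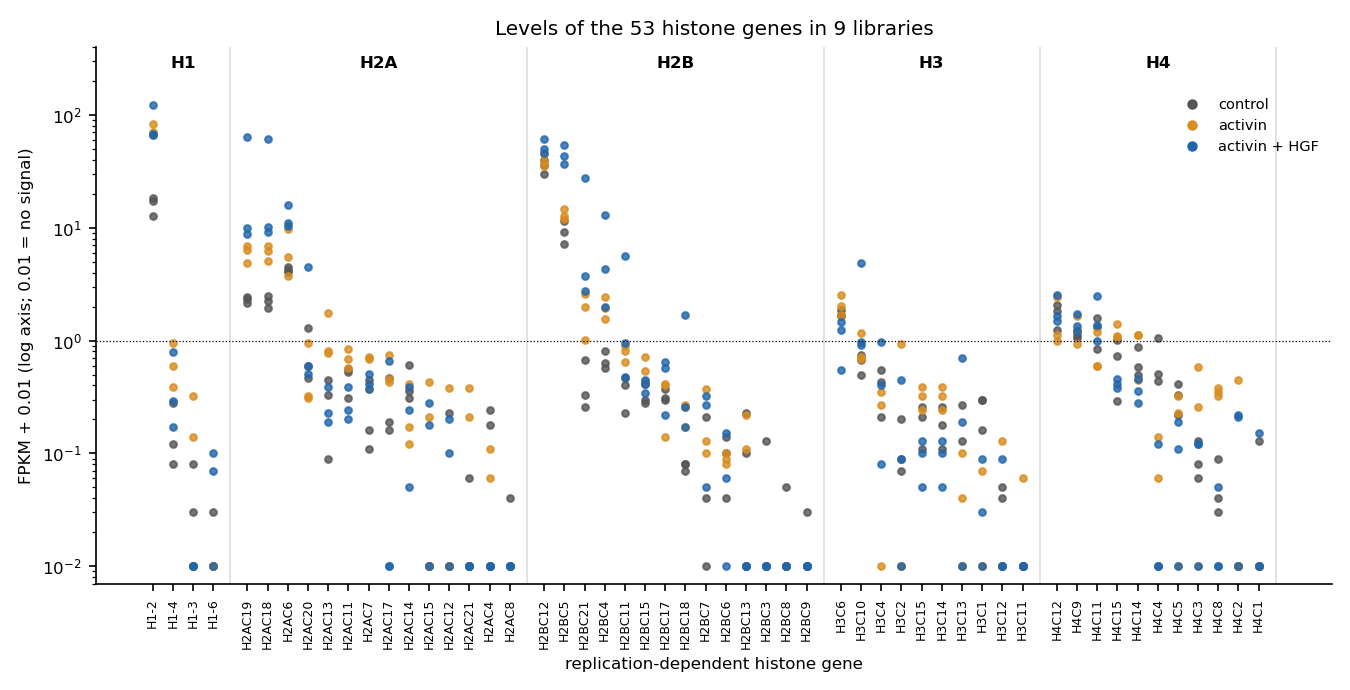
FPKM (plus 0.01, log axis) of each of the 53 histone genes in each of the 9 libraries, ordered within families by mean level, with points coloured by group and a dotted line at 1 FPKM. H1-2, H2BC12 and H2BC5 lead at means of 58.5, 42.4 and 22.4 FPKM, and the activin + HGF points stand above the others for the leading H2A and H2B genes.

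The summed FPKM of the members was 92.8, 73.96 and 87.17 in the control libraries, 158.55, 179.46 and 162.45 with activin, and 449.0, 210.61 and 196.38 with activin + HGF. The groups did not overlap, and activin + HGF replicate 1 lay far above both other libraries of its group. Without the 8 most abundant members the sums were 16.54, 14.2 and 12.25 in control, and 16.34, 16.5 and 21.12 with activin. With activin + HGF they were 30.79, 13.0 and 12.24, and the groups overlapped. The 8 were ranked on these same 9 libraries, and all except H2BC12 are among the genes called below. The ranking favours members that are high in the treated libraries, so this overlap says little about the remaining members. In bulk RNA a change in the share of cells that express a gene, for example the share in S phase, and a change in RNA per cell cannot be told apart.

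H1 and H2B genes carried most of the sum in every library. The H1 sum was 12.91 to 18.63 FPKM in control, 67.62 to 84.05 with activin and 66.35 to 123.75 with activin + HGF. The H2B sum was 39.36 to 51.59 FPKM in control, 54.74 to 64.58 with activin and 89.6 to 163.92 with activin + HGF. The H3 sum stayed between 3.11 and 6.52 FPKM and the H4 sum between 4.87 and 8.36 FPKM over all 9 libraries, with no separation of the 3 groups.

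**Figure D2:**
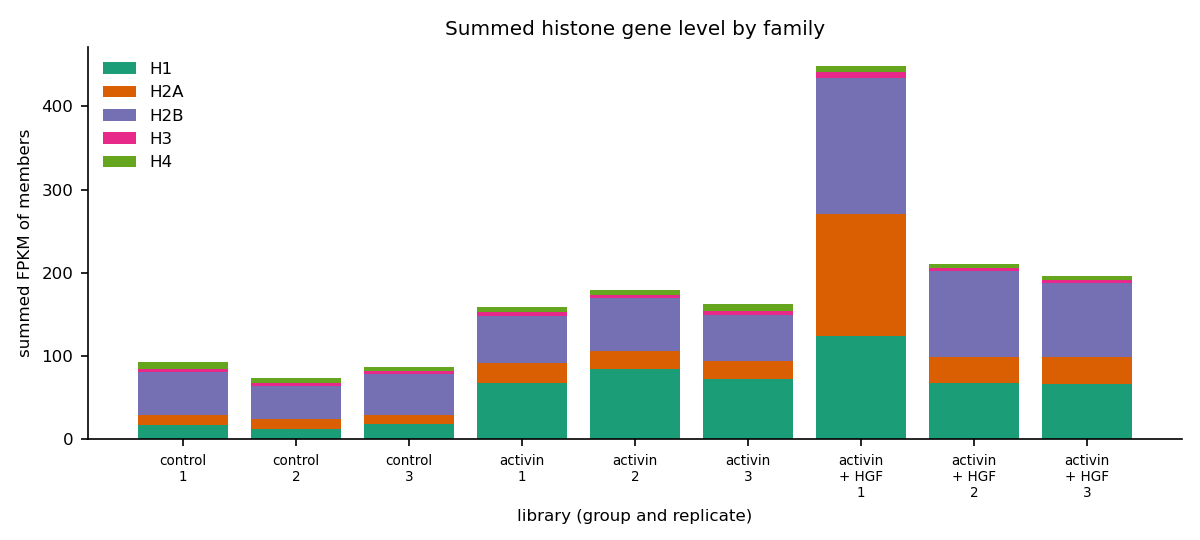
Summed FPKM of the 53 histone genes in each of the 9 libraries, stacked by family. The sum was 73.96 to 92.8 in control, 158.55 to 179.46 with activin and 196.38 to 449.0 with activin + HGF, and the H3 and H4 parts stayed at or under 8.36 FPKM each.

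The libraries held 57453977 to 77016167 counts, of which the members took 0.0070% to 0.0082% in control, 0.0150% to 0.0162% with activin and 0.0183% to 0.0438% with activin + HGF. Activin + HGF replicate 1 stood apart from the other 2 libraries of its group. Over the genes tested, its log2 CPM correlated with theirs at Pearson's r of 0.946 and 0.940, against 0.9635 between those 2. Activin replicate 2 had similar values with its own group, 0.9407 and 0.941, against 0.957 between the other 2 activin libraries. Activin + HGF replicate 1 had the lowest TMM factor of the 9, 0.783. Its top gene was MT-RNR2, a mitochondrial ribosomal RNA, with 4.49% of the counts, where MT-ND4 or MT-CO1 led every other library. There, 47.1% of the 34 tested members, 16 genes, were at least 2-fold above the mean of the other 2 libraries, against 9.81% of all genes tested, itself the highest share of the 9 libraries. The part of these differences in the histone values was not tested, and the calls made with activin + HGF are also given without this library. The labels name ribosomal RNA removal as the library method, which keeps RNA without a poly(A) tail. The 17 RNAs of that kind found in the data, among them RN7SK, RN7SL1 and SNORD3A, summed to 187 to 266 counts in control. They summed to 381 to 888 counts with activin and 338 to 642 with activin + HGF. Many of them are short, so these sums cannot show how far longer RNA without a poly(A) tail was kept. Whether the histone values cover mainly polyadenylated forms was not tested.

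Epithelial markers summed to 640 to 975 FPKM per library. The 10 markers of immune, endothelial and stromal cells summed to 6.18 to 6.61 FPKM in control, 12.56 to 16.48 with activin and 11.99 to 14.1 with activin + HGF, with 1 to 4 of them at 0 counts in a library. PTPRC and CD3E, which define leukocytes and T cells, were at 0 in every control library and reached at most 11 counts. CD68, a macrophage marker, and the collagen gene COL1A1 rose with activin and COL3A1, another collagen gene, fell, 3 of the 7 markers tested. In activin + HGF against activin COL3A1 rose, and against control CD68 rose and COL3A1 fell. By the test described below, 11.4%, 8.09% and 21.5% of all genes tested were called in these 3 comparisons. The part of these markers in the histone values was not tested.

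Differences between groups were tested with edgeR's quasi-likelihood test on the counts of all 9 libraries, and calls required an adjusted p (Benjamini-Hochberg, over all genes tested) under 0.05 with a difference of at least 2-fold. The test covered 34 of the 53 members. The other 19 had at most 36 counts in any library and a mean of at most 0.198 FPKM. Values in CPM are counts relative to the library's size after TMM scaling and serve to compare libraries, and each ± after a log2 difference is a standard error. The 3 comparisons share libraries, so their values are given side by side and are not independent.

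With activin alone 1 histone gene rose, the linker histone gene H1-2. It had 13.7, 10.5 and 15.1 CPM in control and 48.6, 71.3 and 52.3 CPM with activin. Every activin library lay above every control library. The mean rose from 13.1 ± 2.33 to 57.4 ± 12.2 CPM (SD, n = 3), a log2 difference of 2.13 ± 0.32 with an adjusted p of 0.00167 by edgeR, or 4.38-fold. H1-2 was the single call among 34 tested members, 2.94%, where 11.4% of all genes tested were called in this comparison and 6.78% were called higher.

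The remaining members were for the most part shifted in the same direction without being called. The median log2 difference was 0.60 over the 34 members and 0.02 over all 20988 genes tested. In 12 members all activin libraries lay above all control libraries and in 1 all lay under them, and 42.2% of all genes tested had groups that did not overlap. Fitted on the 6 control and activin libraries alone, the test called 7 members, adding H2AC18, H2AC19, H2BC18, H2BC21, H2BC4 and H4C8. In that fit 12.8% of all genes tested were called.

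Among the uncalled members were H2A and H2B genes that led the later comparisons. H2BC21 had 0.768, 1.65 and 0.609 CPM in control and 4.29, 6.61 and 2.22 CPM with activin. The groups did not overlap, and the log2 difference was 2.12 ± 0.88 with an adjusted p of 0.126 by edgeR. H2AC19 had 91, 101 and 109 counts in control and 202, 284 and 270 counts with activin, a log2 difference of 1.32 ± 0.70 with an adjusted p of 0.231. Its copy H2AC18 gave 1.38 ± 0.68 with an adjusted p of 0.199. H1-4, the second tested linker histone gene, gave 1.94 ± 0.85 with an adjusted p of 0.149 at under 1 FPKM in every library.

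The abundant H2B genes differed little between control and activin. H2BC12 had 21.3, 16.9 and 19.7 CPM in control and 19.3, 26.1 and 17.5 CPM with activin, so the groups overlapped. Its log2 difference was 0.12 ± 0.23. H2BC5 had a log2 difference of 0.42 ± 0.25 with an adjusted p of 0.281, and the H2A gene H2AC6 one of 0.45 ± 0.32 with an adjusted p of 0.379.

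With HGF after activin 6 members rose against activin alone, and all 6 were H2A or H2B genes. They were H2AC19, H2AC18, H2AC6, H2BC5, H2BC21 and H2BC4, or 17.6% of the 34 tested members, where 8.09% of all genes tested were called and 3.87% were called higher. No member was called lower by edgeR, where 2 members were lower at an unadjusted p under 0.05, and DESeq2 called 1 lower and limma 3 lower on log2(FPKM + 0.1) and 0 on log2(FPKM + 1). The median log2 difference was 0.50 over the members and -0.04 over all genes tested, and it was 0.43 over the 9 tested H2A genes, -0.59 over the 5 H3 genes and -0.47 over the 8 H4 genes. Of the 10 tested H2B genes 9 had a positive difference. In 8 members the activin + HGF libraries all lay above the activin libraries and in 6 all lay under them, where 32.7% of all genes tested did not overlap.

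H2BC5 gave the steadiest difference of these 6. It had 10.4, 13.0 and 12.8 CPM with activin and 72.3, 47.9 and 42.5 CPM with activin + HGF, and 8.75, 7.18 and 11.1 CPM in control. All 3 activin + HGF libraries lay far above the other 6. The log2 difference from activin was 2.17 ± 0.25 with an adjusted p of 0.00247 by edgeR, or 4.49-fold. Without activin + HGF replicate 1 it was 1.91 ± 0.22 with an adjusted p of 0.00433. H2BC5 was the single member that kept its call against activin under every alternative that gave it a value. In the deposited table its gene spans 13204 bases and overlaps LARP1P1 and AL353759, so some of its counts could belong to those genes.

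Each of the other 5 calls ended when activin + HGF replicate 1 was left out. H2BC21 had 4.29, 6.61 and 2.22 CPM with activin and 91.9, 10.5 and 7.95 CPM with activin + HGF. Each activin + HGF library lay above each activin library, but replicate 1 was 9.98-fold above the mean of the other 2. The log2 difference was 3.07 ± 0.88 with an adjusted p of 0.0455 by edgeR, and without that library it was 1.08 with an adjusted p of 0.214.

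H2AC19 had 2.74, 4.55 and 3.59 CPM with activin and 54.6, 6.40 and 7.41 CPM with activin + HGF. The log2 difference was 2.65 ± 0.72 with an adjusted p of 0.0373 by edgeR, and 0.93 with an adjusted p of 0.0693 without replicate 1. Its copy H2AC18 gave 2.60 ± 0.69 with an adjusted p of 0.0362, and 0.96 with an adjusted p of 0.0634 without replicate 1. The coding sequences of H2AC18 and H2AC19 are identical over 393 bases, so how reads were divided between them is uncertain and their values are not independent.

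H2AC6 had 1182, 459 and 692 counts with activin and 2210, 1632 and 1450 counts with activin + HGF. The groups did not overlap. The log2 difference was 1.41 ± 0.32 with an adjusted p of 0.0206 by edgeR, and 1.10 ± 0.30 with an adjusted p of 0.0571 without activin + HGF replicate 1. H2BC4 had 2.04, 1.52 and 1.62 CPM with activin and 16.4, 4.59 and 2.18 CPM with activin + HGF, with a log2 difference of 2.16 ± 0.61 and an adjusted p of 0.0427. Without replicate 1 it gave 0.98 with an adjusted p of 0.143. Leaving out that library reduced the 6 calls to H2BC5 and added H2AC17 and H4C8 as lower, for 3 calls in all. Of all genes tested 4.89% were then called, against 8.09% with all 9 libraries.

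Calls in this comparison also changed with other libraries left out. Leaving out activin replicate 1 or activin replicate 2 left H2BC5 and H2AC6, and leaving out activin replicate 3 left H2BC5 alone. Of all genes tested, 2.76%, 10.9% and 3.95% were called without activin replicates 1, 2 and 3, against 8.09% with all 9 libraries. Fitted on the 6 activin and activin + HGF libraries only, the test again called H2BC5 alone, and 3.46% of all genes tested. The median over the members was 0.02 without activin replicate 1, 0.16 without activin + HGF replicate 1 and 0.19 without activin + HGF replicate 2.

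**Figure D3:**
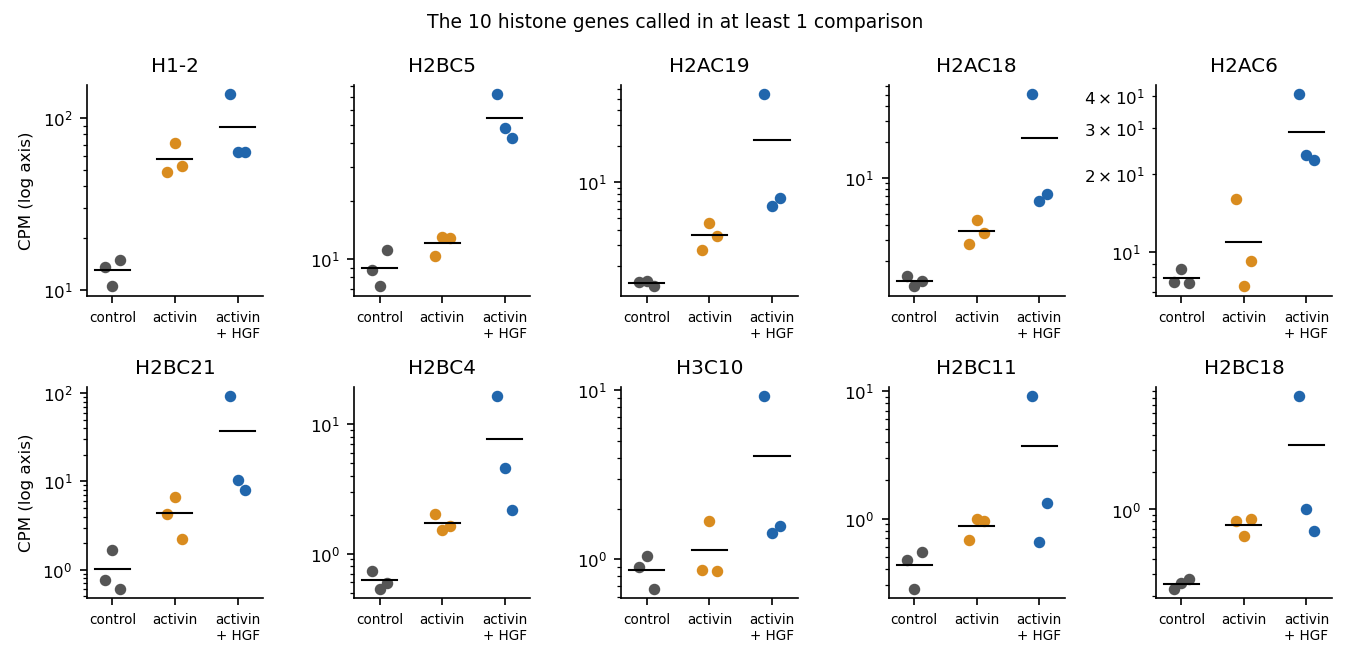
CPM (log axis, a separate scale for each gene) of the 10 histone genes called in at least 1 comparison, with 1 point per library and a bar at each group's mean. H1-2 is already high with activin at a mean of 57.4 CPM, H2BC5 is high in all 3 activin + HGF libraries at 42.5 to 72.3 CPM, and for H2BC21, H2AC19 and H2AC18 a single activin + HGF library stands far above the others.

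Against control, 10 members rose with activin + HGF. By edgeR no member was called lower, with 1 lower at an unadjusted p under 0.05, while DESeq2 called 1 lower and limma 0. The 10 were H1-2, the 6 genes above, and H2BC11, H2BC18 and H3C10, or 29.4% of the 34 tested members, where 21.5% of all genes tested were called and 11.3% were called higher. The median log2 difference was 0.69 over the members and -0.03 over all genes tested. In 14 members all activin + HGF libraries lay above all control libraries and in 2 all lay under them, where 53.8% of all genes tested did not overlap.

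H1-2 had 137, 63.5 and 63.5 CPM with activin + HGF, above the 10.5 to 15.1 CPM of control. The log2 difference was 2.75 ± 0.33 with an adjusted p of 2.6e-04 by edgeR, and 2.28 ± 0.22 without activin + HGF replicate 1. Against activin alone it was 0.62 ± 0.31 with an adjusted p of 0.209, and 2 of the 3 activin + HGF libraries lay within the activin range of 48.6 to 71.3 CPM.

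H2BC21 had the largest fitted difference from control, 5.19 ± 0.98 on the log2 scale with an adjusted p of 0.00315 by edgeR. Without activin + HGF replicate 1 it was 3.19 ± 0.53 with an adjusted p of 0.00289. H2AC18 and H2AC19 both gave 3.98, with standard errors of 0.74 and 0.76, and without that library 2.34 and 2.25. H2BC5 gave 2.59 ± 0.26 with an adjusted p of 1.0e-04, and H2AC6 gave 1.87 ± 0.33 with an adjusted p of 0.0021. H2BC4, named here as a called gene outside the abundance rule, gave 3.63 ± 0.65, and 2.44 ± 0.39 without that library. All these calls held when activin + HGF replicate 1 was left out.

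H2BC11 and H3C10 did not hold. H2BC11 had 0.283 to 0.547 CPM in control and 9.06, 0.654 and 1.33 CPM with activin + HGF. The adjusted p was 0.0201 with all libraries and 0.113 without activin + HGF replicate 1. H3C10, the only called H3 gene, had 0.898, 1.04 and 0.671 CPM in control and 9.22, 1.44 and 1.58 CPM with activin + HGF. Its log2 difference was 2.23 ± 0.69 with an adjusted p of 0.0333 by edgeR, and 0.79 with an adjusted p of 0.205 without that library. Leaving out any 1 control library also ended the calls of H2BC11 and H3C10. H2BC18 kept its call, at 3.70 ± 0.87 with an adjusted p of 0.00924 and 1.74 ± 0.47 with an adjusted p of 0.0249 without activin + HGF replicate 1, at a mean of 0.329 FPKM. In the deposited table its gene spans 29685 bases and overlaps FCGR1A and AC243772. It also shares 55 of its 306 windows of 100 coding bases with other members, and H2BC21 is the closest. How reads were assigned to H2BC18 is therefore uncertain.

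H2BC12, the second most abundant member, stayed under the fold threshold. It had 45.8, 31.8 and 30.0 CPM with activin + HGF against 16.9 to 21.3 CPM in control, with no overlap. The log2 difference was 0.89 ± 0.23 with an adjusted p of 0.0143 by edgeR, and against activin it was 0.77 ± 0.23 with an adjusted p of 0.0504. With no fold minimum the adjusted p alone passed 1 member for activin against control, 6 for activin + HGF against activin and 11 for activin + HGF against control, where 18%, 12.9% and 31.4% of all genes tested passed.

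**Figure D4:**
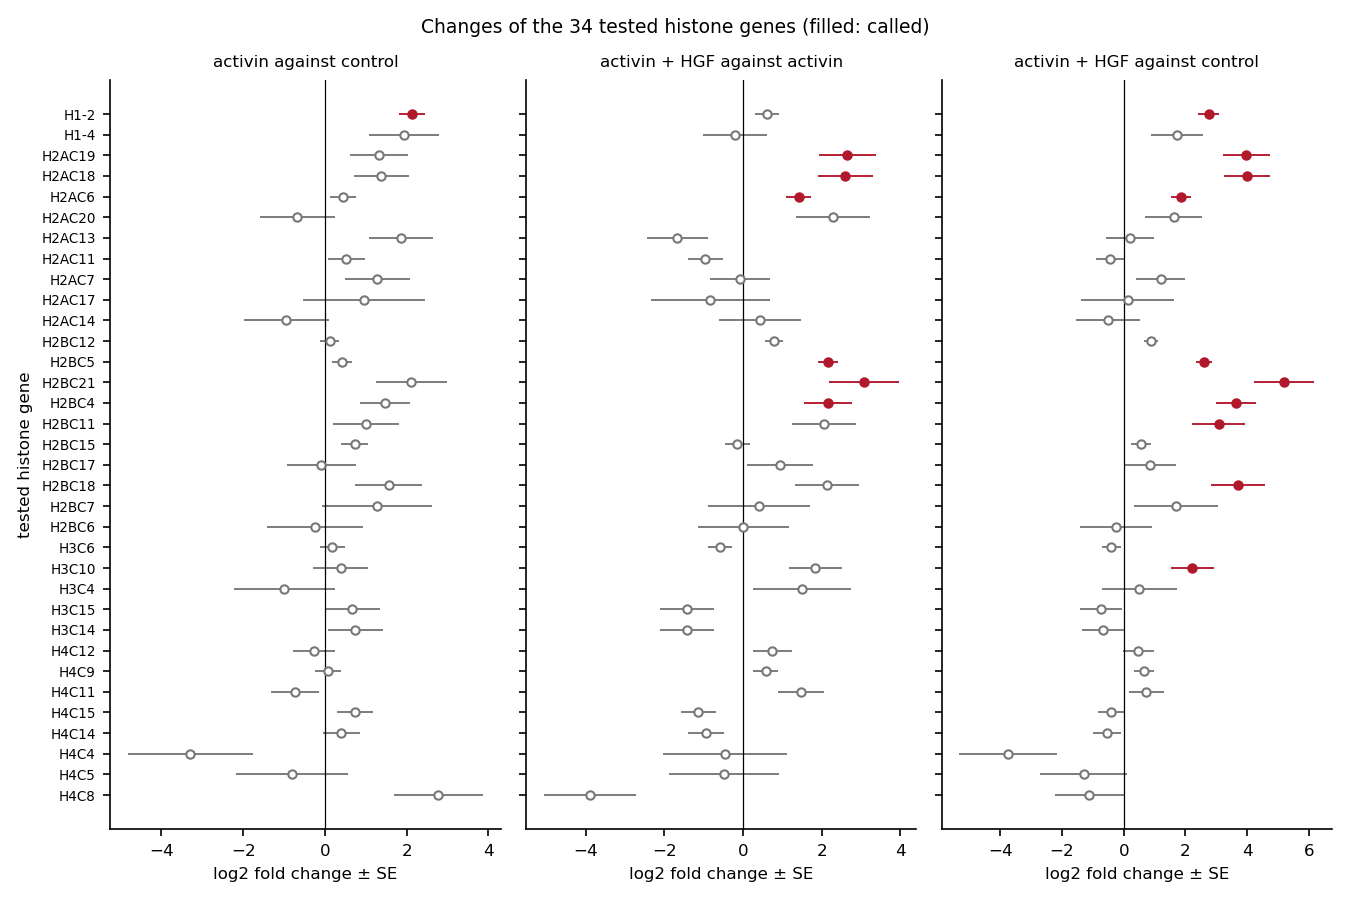
Log2 difference ± SE of the 34 tested histone genes in the 3 comparisons, by family, with genes called by edgeR on all 9 libraries filled in red. These calls number 1 for activin against control, 6 for activin + HGF against activin and 10 for activin + HGF against control, all of them higher, and none of the 8 H4 genes is among them. Of all genes tested, 11.4%, 8.09% and 21.5% were called in the same order.

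With all 9 libraries, TMM scaling and the filter on low counts, edgeR called no H4 gene in any of the 3 comparisons. In activin against control, activin + HGF against activin and activin + HGF against control, 11.4%, 8.09% and 21.5% of all genes tested were called. With 8 H4 genes tested, 0 calls does not set the family apart from those shares. In these 3 comparisons, in the same order, 1, 3 and 1 of the 8 passed an unadjusted p under 0.05 by edgeR. DESeq2 called H4C8 in the first and second of these and H4C4 in the last, and limma on log2(FPKM + 0.1) called H4C15 in the second. With edgeR itself, library totals without TMM called H4C8 and H4C15 as lower in activin + HGF against activin, and leaving out activin + HGF replicate 1 called H4C8 there. The fit on the control and activin libraries alone called H4C8 in activin against control. H4C12 had 0.866, 0.818 and 0.534 CPM in control, 0.380, 0.512 and 0.945 with activin, and 1.51, 0.742 and 0.842 with activin + HGF. H4C9 had a log2 difference of 0.08 ± 0.32 for activin against control and 0.65 ± 0.32 for activin + HGF against control. H4C11, whose coding sequence is identical to that of H4C12, gave -0.74 ± 0.58 and 0.73 ± 0.58 in the same comparisons. These 3 lead the tested H4 genes in level, and their groups overlapped except for H4C9 in activin + HGF against control and H4C11 in activin + HGF against activin.

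The most uneven H4 genes were rare ones, picked here after their values were seen. H4C8 had 3, 14 and 7 counts in control, 52, 54 and 62 with activin and 8, 0 and 1 with activin + HGF. It was high in all 3 activin libraries and low in the other 6. Its adjusted p by edgeR was 0.108 against control and 0.0539 for activin + HGF against activin. H4C4 had 29, 14 and 19 counts in control against 0 to 4 in the other 6 libraries, with adjusted p of 0.17 and 0.0954 for the comparisons with control.

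H3C6 had 5.36, 5.06 and 5.02 CPM in control, 6.70, 5.22 and 5.51 with activin, and 2.20, 4.99 and 4.41 with activin + HGF. The activin + HGF libraries were the lowest, but the log2 difference from activin was -0.59 ± 0.31 with an adjusted p of 0.228 by edgeR. It was the reverse of the pattern in the H2A and H2B calls, since activin + HGF replicate 1 was here the lowest library. H3C4 had 0 to 0.625 CPM in the 9 libraries, with overlapping groups in every comparison.

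Histone genes often lie head to head and share a promoter region, and 9 such pairs of members had starts within 1000 bases of each other. H2BC4 and H2AC6 start 219 bases apart, and both were called against activin and against control. H2BC21 and H2AC20 start 266 bases apart. H2BC21 was called against control, and H2AC20 gave a log2 difference of 1.62 ± 0.92 with an adjusted p of 0.208 by edgeR. H2BC11 and H2AC11 start 292 bases apart. H2BC11 was called against control, and H2AC11 gave -0.43 ± 0.45 with an adjusted p of 0.508 by edgeR. H2BC12 and H2AC12 start 251 bases apart, and their means over the 9 libraries were 42.4 and 0.0967 FPKM. The starts are those of the deposited gene table, where H3C12, paired with H2BC17, has a span of 2792 bases that overlaps H2AC17.

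Promoters are shown for 4 members that mark different outcomes. H1-2 is the activin call, and H2BC5 the steadiest call of activin + HGF against activin. H2BC21 has the largest difference, and H4C12 is the most abundant H4 gene. The sequences are the 250 bases upstream of the start in RefSeq (GRCh38.p14), 5′ to 3′ on the gene's strand. Capitals mark 3 motifs on either strand, so that a motif on the other strand appears as its reverse complement, and overlapping matches form a single run. The letters CCAAT make up the box of that name. The letters TATAAA are those of a TATA box. The letters TTTGCAT are part of the octamer element bound by POU2F1.
H1-2 promoter, chr6:26056471-26056720, minus strand: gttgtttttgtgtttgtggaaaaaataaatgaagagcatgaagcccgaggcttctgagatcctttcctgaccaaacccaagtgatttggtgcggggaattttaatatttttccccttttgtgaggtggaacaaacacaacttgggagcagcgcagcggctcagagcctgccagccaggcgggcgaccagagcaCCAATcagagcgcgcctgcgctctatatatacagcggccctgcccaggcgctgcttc
H2BC5 promoter, chr6:26157871-26158120, plus strand: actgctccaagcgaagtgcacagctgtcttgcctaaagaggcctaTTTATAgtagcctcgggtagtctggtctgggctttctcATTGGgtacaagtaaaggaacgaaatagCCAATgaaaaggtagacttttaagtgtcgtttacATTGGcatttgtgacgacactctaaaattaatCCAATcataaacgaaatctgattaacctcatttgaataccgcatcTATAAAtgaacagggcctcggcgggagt
H2BC21 promoter, chr1:149886683-149886932, minus strand: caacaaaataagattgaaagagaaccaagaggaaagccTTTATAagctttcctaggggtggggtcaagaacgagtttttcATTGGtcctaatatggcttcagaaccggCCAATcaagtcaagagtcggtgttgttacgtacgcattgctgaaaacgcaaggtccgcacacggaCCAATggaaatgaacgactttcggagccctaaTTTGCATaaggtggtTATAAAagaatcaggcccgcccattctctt
H4C12 promoter, chr6:27831561-27831810, minus strand: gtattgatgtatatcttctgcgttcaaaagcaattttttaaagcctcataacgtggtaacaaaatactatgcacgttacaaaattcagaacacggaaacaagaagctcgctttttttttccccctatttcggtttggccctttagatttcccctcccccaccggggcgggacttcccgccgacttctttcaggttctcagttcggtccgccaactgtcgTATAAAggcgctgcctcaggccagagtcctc
The search covered 47 of the 53 members and all 35116 RefSeq promoters. H3C4 was left out because its listed window repeats that of H2AC7, 2007 bases from the H3C4 gene. CCAAT was present in 39 of the 47 members, in every H1, H2A, H2B and H3 promoter and in 1 of 9 H4 promoters, and in 32.01% of all promoters. TATAAA was present in 34 of 47, and in 10.72% of all. TTTGCAT was present in 20 of 47, of which 11 were among the 14 H2B and 9 among the 13 H2A promoters, and in 3.941% of all. H2BC5 held 4 matches to CCAAT, 2 to TATAAA and none to TTTGCAT in this window, while H2BC21 held TTTGCAT once and H1-2 held CCAAT once. Head-to-head partners such as H2BC21 and H2AC20, or H2BC4 and H2AC6, have overlapping windows, so the same match can count for both partners. The windows of the copies H2AC18 and H2AC19 are nearly the same in sequence. The member counts are therefore not counts of separate regions. A match is a string of letters, not a measured binding site.

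The genes that make and clear histone mRNA did not follow the histone genes upward. Of 23 tested genes for histone transcription, processing and decay, 4 fell with activin, namely SRRT, SNRPD3, ERI1 and NCBP1, and 4.62% of all genes tested were called lower there. In activin + HGF against activin edgeR called none, with 8 higher and 2 lower at an unadjusted p under 0.05, while DESeq2 called 1 lower and limma 2 lower on log2(FPKM + 0.1) and 0 on log2(FPKM + 1), and 4.21% of all genes were called lower. Against control, 6 fell with activin + HGF, namely SNRPD3, CSTF2, CASP8AP2, CPSF3, NCBP1 and CPSF2, where 10.2% of all genes were called lower. None was called higher by edgeR, DESeq2 or limma in any of the 3 comparisons, and 2 were higher than control with activin + HGF at an unadjusted p under 0.05 by edgeR. SNRPD3, a protein of Sm cores, had the largest fall with activin, -1.90 ± 0.19 on the log2 scale, and NCBP1, a cap-binding protein, the largest against control with activin + HGF, -1.85 ± 0.26.

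SLBP, the stem-loop binding protein, had 48.84, 41.44 and 46.38 FPKM in control, 25.62, 23.45 and 29.83 with activin and 16.61, 24.21 and 23.83 with activin + HGF. All 6 treated libraries lay under the 3 control libraries. The log2 difference was -0.87 ± 0.16 for activin and -0.79 ± 0.16 for activin + HGF against control, with adjusted p of 0.00446 and 0.00422 by edgeR, both short of the 2-fold threshold. NPAT, the coactivator of histone gene transcription, gave -0.79 ± 0.50 and -1.42 ± 0.51, with adjusted p of 0.322 and 0.0561. CASP8AP2, a component of the histone locus body, gave -0.58 ± 0.31 with activin, and fell by 1.06 with activin + HGF against control with an adjusted p of 0.0273.

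Histone chaperones escort histones to and from DNA. Of 21 tested chaperone genes 6 fell with activin, 2 with activin + HGF against activin and 12 with activin + HGF against control, where 4.62%, 4.21% and 10.2% of all genes tested were called lower. None was called higher by edgeR, DESeq2 or limma, and 2 were higher with activin + HGF against activin at an unadjusted p under 0.05 by edgeR. CHAF1A, the large subunit of the CAF-1 complex that deposits H3 and H4 on new DNA, had the largest fall in both comparisons with control, -1.43 ± 0.26 with activin and -2.35 ± 0.27 with activin + HGF. HJURP, the chaperone of the centromeric histone CENPA, had the largest fall against activin, -2.25 ± 0.16.

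S phase genes moved opposite to the called histone genes. Of 30 such genes 19 fell with activin and 24 with activin + HGF against control, with medians of -1.09 and -1.65. In activin + HGF against activin 5 fell. In the same order 4.62%, 10.2% and 4.21% of all genes tested were called lower. None of the 30 was called higher by edgeR, DESeq2 or limma in any of the 3 comparisons. By edgeR 1 was higher than control with activin + HGF at an unadjusted p under 0.05. MCM5, a subunit of the replicative helicase, was 7.98-fold lower with activin. CCNE2, a cyclin of the entry into S phase, had the largest fall against activin, -2.33 ± 0.24. The summed FPKM of the 30 genes was 945 to 1006 in control, 442 to 467 with activin and 249 to 332 with activin + HGF, lowest in activin + HGF replicate 1, the library with the highest histone sum. The part of cell cycle stage in the histone values was not tested.

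Mitosis genes fell too, where 4.62%, 10.2% and 4.21% of all genes tested were called lower in the comparisons that follow. Of 20 mitosis genes, 7 fell with activin, 15 with activin + HGF against control and 5 with activin + HGF against activin. MKI67, a marker of cycling cells, had the largest fall in all 3 comparisons, and was 2.84-fold lower with activin, 9.47-fold lower with activin + HGF against control and 3.34-fold lower with activin + HGF against activin.

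Replication-independent histone variants, whose genes lie outside the clusters and whose mRNAs are for the most part polyadenylated, gave another picture. Of 12 tested, 3 rose with activin, among them H3-3B and H1-10, and in activin + HGF against activin edgeR called none, with 2 higher and 2 lower at an unadjusted p under 0.05, while DESeq2 and limma each called 1 lower. Against control with activin + HGF, 2 rose, among them H1-10, and CENPA fell. Of all genes tested, 6.78% were called higher with activin, and 11.3% higher and 10.2% lower with activin + HGF against control. H1-10, a linker histone variant, rose by 1.87 ± 0.26 on the log2 scale with activin and by 2.24 ± 0.26 with activin + HGF against control.

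**Figure D5:**
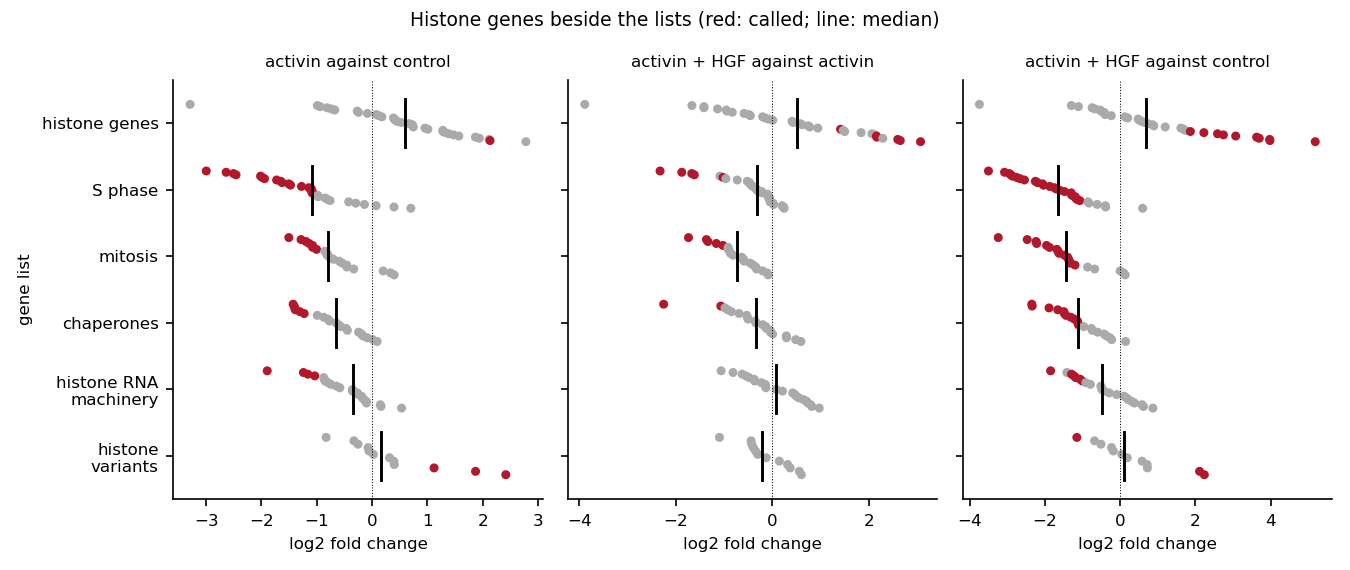
Log2 difference of each tested gene in the histone set and 5 other gene lists, for the 3 comparisons, with called genes in red and a bar at each list's median. The histone median is 0.60, 0.50 and 0.69 from left to right, while the S phase median is -1.09, -0.32 and -1.65.

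Of the 6 tested RNAs without a poly(A) tail, SNORD3A and RN7SL1 rose with activin and SNORD3A and RN7SK rose with activin + HGF against control. In activin + HGF against activin edgeR and DESeq2 called none, with 1 higher at an unadjusted p under 0.05 by edgeR, and limma called 1 lower. SNORD3A, the U3 snoRNA, gave 2.13 ± 0.57 and 2.36 ± 0.57 on the log2 scale in the comparisons with control. There 6.78% and 11.3% of all genes tested were called higher. The part of RNA selection during library preparation in the histone values was not tested.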

How the data were processed

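RNA sequencing of HCT116 cells gave 9 libraries in 3 groups of 3, assigned from the titles and treatment tags of the labels. The authors deposited read counts per gene, not normalized, together with FPKM for each of the 33861 genes, scaled by the authors for depth and length. The submitters' processing notes name cutadapt 1.9, HISAT2 2.0.4 and StringTie 1.3.4d without their roles. The genome build, the annotation and whether counting used strand are not given in the sources used here. All per-library columns were used. Of the 53 members, 52 had a GENCODE v29 (GRCh38) gene with the same identifier, and each of the 52 overlapped it in position.

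The members, gene lists and tests were chosen with earlier results of these data known. Counts of all 9 libraries were fitted with edgeR 4.0.16 in R 4.3.3 (filterByExpr, TMM, glmQLFit and glmQLFTest, a mean per group, no block), with Benjamini-Hochberg adjustment over the 20988 genes tested. A gene was called at an adjusted p under 0.05 and an absolute log2 difference of at least 1. The standard error was taken as the size of the log2 difference over the square root of the F statistic. Medians over members were given no test. The fit was tested on simulated counts with known changes. Library totals of 57453977 to 77016167 counts put 3 counts at 0.0373 to 0.0551 CPM after TMM scaling.

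Named members were the 3 tested members of highest mean FPKM in each family, and the called members with the 3 largest differences in each direction whose groups did not overlap. Other members are named where a count covers them. The lists contributed SLBP, NPAT, CASP8AP2 and the called gene with the largest difference, of which some are not reported here. Alternatives were other scalings, no filter, a replicate block, a fit on only the groups compared, no fold minimum, DESeq2 1.42.0, limma 3.58.1 on log2(FPKM + 1) and log2(FPKM + 0.1), and leaving out each library. Leaving out the 14 members that overlap another gene was added after seeing the data. In all, 16 of 52 members share at least 1 stretch of 100 coding bases with another member, so how their reads were divided is uncertain. Sequence searches used Python 3.11.15, pandas 2.3.3 and numpy 2.4.6, and figures matplotlib 3.10.9.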

Additional observations from a re-analysis of the deposited data

How the results depend on the processing

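Activin against control gave 1 call with all libraries, and H1-2 kept its call in every alternative run. Fitted on the 2 groups alone the count was 7, and it was 2 with DESeq2 and with limma on log2(FPKM + 0.1). Of all genes fitted, 12.8%, 9.08% and 14.1% were called in the same order, against 11.4% with edgeR on all 9 libraries. Activin + HGF against activin depended most on the processing. Its 6 calls became 2 with a replicate block (H2BC5 and H2AC6), 1 on the 2 groups alone, 1 with limma on log2(FPKM + 1), and 1 to 7 when single libraries were left out. Of all genes fitted, 6.51%, 3.46%, 4.61% and 2.76% to 10.9% were called in the same order, against 8.09% with edgeR on all 9 libraries. The median over the members in this comparison, 0.50, was 0.15 on library totals, 0.00 without the filter on low counts and -0.0083 with DESeq2, which fitted more low members. It ranged from 0.0165 to 0.7528 over the fits without 1 library. The cause of the other changes was not tested. Library totals without TMM moved the median of all genes in that comparison from -0.04 to -0.38, and in activin + HGF against control from -0.03 to -0.30. Activin + HGF against control gave 7 to 11 calls, and over the refits 12.4% to 27.4% of all genes fitted were called. Without the 14 members that overlap another gene, a choice made after seeing the data, the 3 comparisons gave 1, 5 and 8 calls among 23 members. The shares of all genes tested there were 11.4%, 8.09% and 21.5%. Of 576 values of the 14 named members under alternatives, 533 kept direction and side of the threshold, 38 lost the call, 5 gained it and 0 turned. DESeq2 gave no p for H2AC18 and H2AC19 in the 2 comparisons with activin + HGF, and limma's filter dropped H2BC18. Libraries with the same number did not deviate together (correlations from -0.0606 to 0.0882), so the numbers were not used as pairs. The replicate block gave 1, 2 and 8 calls in the 3 comparisons, where 10.6%, 6.51% and 20.1% of all genes tested were called. Depth limits the 19 untested members, whose highest count was 36.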

Other observations

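Several histone genes lie outside the naming rule and entered none of the counts above. H2AW, an H2A gene on chromosome 1 whose new symbol has no cluster number, had 9.72, 9.73 and 7.75 FPKM in control, 13.89, 21.93 and 13.99 with activin, and 27.67, 19.47 and 24.18 with activin + HGF. Its mean over the 9 libraries, 16.5 FPKM, would have placed it between H2BC5 at 22.4 and H2AC19 at 11.9 FPKM. H2BU1, its neighbour, stayed between 0.07 and 0.39 FPKM. H2BE1 on chromosome 7 had 0.53 to 0.77 FPKM in control, 0 to 1.32 with activin and 1.28 to 2.28 with activin + HGF. The pseudogenes H2BC19P and H2BC20P, which lie beside H2AC18 and H2AC19, had means of 1.63 and 0.828 FPKM.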
